A study of Mus musculus with 4 samples.

Results

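Red cells carry oxygen on haemoglobin, a protein of paired alpha and beta globin chains, under a membrane held in shape by a spectrin skeleton. Slc4a1 (band 3, the anion exchanger) spans that membrane. Ank1 (ankyrin 1) ties band 3 to beta spectrin, which Sptb encodes, and Epb42 (protein 4.2) strengthens the tie. Developing red cells in the spleen and bone marrow make these proteins, while dendritic cells, the antigen-presenting cells sorted here, are not known for making them.

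The genes described are the 4 adult globin genes Hbb-bs, Hbb-bt, Hba-a1 and Hba-a2 and the 4 membrane genes Slc4a1, Sptb, Ank1 and Epb42. They are 8 of the 17300 genes in the deposited table, and each of the 8 symbols matched 1 Ensembl identifier there. They were chosen by symbol, with their KO and WT values and the gap between the WT libraries already known. Their own differences are therefore given as a description. Counts of members that passed the fit over all genes, kept a library order or showed a gap are not evidence. Total RNA of dendritic cells obtained by flow sorting from mouse spleen was sequenced in 4 libraries, 2 of genotype KO and 2 of genotype WT. The labels give no strain, age, sex, treatment or sorting gate, and they do not say whether libraries of 1 group came from separate animals. Ddx3y, a Y-linked gene, had 64.5 counts in KO A and 3979 in KO B, so the KO libraries were not repeats of 1 RNA sample, while for the WT libraries the spread may be technical. All p-values measure only the spread between these samples. The series title names Siglec-E, an inhibitory receptor of myeloid cells, and the sample titles write the KO group as EKO. The prefix Allo on every column name is not explained by the labels. Because the numbers on the KO columns differ from those in the KO titles, a KO column is known by group only, and the names KO A and KO B are used for the pair. Siglece, the gene of Siglec-E, had 859 normalized counts in WT 1 and 666 in WT 2 but 101.2 in KO A and 111 in KO B, a check of the labels.

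Within each globin pair the coding sequences are nearly the same, which limits how far the copies can be told apart. In GENCODE M21 transcripts, Hbb-bs and Hbb-bt have coding sequences of 444 bases that differ at 1 base, C417T, and encode proteins with 0 differences over 147 residues. Hba-a1 and Hba-a2 have coding sequences of 429 bases that differ at 1 base, C381T, with 0 differences over 142 residues. Positions are counted from the A of the start codon, and Hbb-bs and Hba-a1 give the first base. The stretches around these positions, 385 to 444 for the beta pair and 351 to 410 for the alpha pair, are shown with the differing base in capitals.
Hbb-bs: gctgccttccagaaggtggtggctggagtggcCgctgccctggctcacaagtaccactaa
Hbb-bt: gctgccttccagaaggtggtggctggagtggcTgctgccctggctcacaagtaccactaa
Hba-a1: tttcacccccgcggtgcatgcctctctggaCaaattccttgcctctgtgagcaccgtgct
Hba-a2: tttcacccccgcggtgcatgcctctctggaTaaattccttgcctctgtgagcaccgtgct

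Over whole transcripts, 66.9% of the 31-base windows of Hbb-bs and 59.4% of those of Hbb-bt also occur in a transcript of another gene, in each case the partner. For Hba-a1 the share was 71.4% and for Hba-a2 91%, with the partner and the pseudogene Hba-ps4 as the other genes. It was 0% for Slc4a1, Sptb and Ank1 and 1.2% for Epb42. The division of counts between the copies of a globin pair is therefore uncertain, while the sum over the 4 globins is less affected and the membrane genes were counted from nearly unshared sequence.

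RefSeq promoters were found for 6 of the 8 genes, and those of Slc4a1 and Ank1 are not shown. The 120 bases before each globin start site are printed because the 4 genes varied together across the libraries. They are from build GRCm38.p6, an older build than the GRCm39 of the submitters' processing notes: chr7:103827929-103828048 (minus strand) for Hbb-bs, chr7:103813924-103814043 (minus strand) for Hbb-bt, chr11:32283552-32283671 (plus strand) for Hba-a1 and chr11:32296372-32296491 (plus strand) for Hba-a2. Capitals mark the CACCC box, the CCAAT box and the TATA box (TATAA), searched on both strands, and the pair of CCAAT matches in Hbb-bt lies end to end on opposite strands.
Hbb-bs: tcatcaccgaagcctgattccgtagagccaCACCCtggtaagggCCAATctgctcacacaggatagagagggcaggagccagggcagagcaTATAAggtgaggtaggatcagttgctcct
Hbb-bt: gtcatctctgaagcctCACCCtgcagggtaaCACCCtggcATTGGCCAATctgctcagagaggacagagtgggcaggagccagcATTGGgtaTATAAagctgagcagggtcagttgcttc
Hba-a1: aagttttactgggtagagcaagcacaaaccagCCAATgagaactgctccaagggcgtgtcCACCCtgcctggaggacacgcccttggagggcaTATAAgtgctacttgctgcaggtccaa
Hba-a2: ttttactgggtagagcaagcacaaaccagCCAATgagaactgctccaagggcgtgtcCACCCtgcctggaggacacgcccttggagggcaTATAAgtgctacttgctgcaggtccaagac

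The alpha promoters share a run of 117 identical bases, whereas the longest run shared by the beta promoters is 14 bases. All 4 globin promoters hold a CACCC box, a CCAAT box and a TATA box within 250 bases before the start site, with a TATA box beginning 27 to 30 bases before it. Over all 32851 RefSeq promoter windows of that length, 52% hold a CACCC box, 33.8% a CCAAT box and 22.8% a TATA box. A GATA word, spelled AGATAA or AGATAG and also sought as TGATAA or TGATAG, occurs before Hbb-bs, Hba-a1, Hba-a2 and Epb42, against 26.5% of all windows. Sptb holds a CACCC box alone, and Epb42 a TATA box 125 bases before its start beside its GATA word. These are matches of letters, and binding was not measured.

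In every one of the 8 genes the libraries stood in the same order, lowest in WT 1, then WT 2, then KO A, and highest in KO B. That order held for 9.68% of the 11864 genes tested, but the members were chosen with these values known. Values are given as normalized counts, obtained by undoing the authors' log2 transform, and as the deposited log2 values, in which low genes are compressed. The globins together made up 0.00565% of counts in WT 1, 0.0386% in WT 2, 0.0861% in KO A and 0.134% in KO B. The membrane genes together made up 0.00657%, 0.0231%, 0.0556% and 0.0806% in the same order. In bulk RNA, more cells of a type and more RNA per cell cannot be told apart.

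Hbb-bs, the more abundant beta globin gene, had 567 counts in WT 1, 3771 in WT 2, 8841 in KO A and 13484 in KO B. Both KO libraries were above both WT libraries, but WT 1 and WT 2 differed more from each other (6.65-fold) than WT 2 did from the KO mean (2.96-fold). On the log2 scale KO was at 13.48 ± 0.41 and WT at 11.03 ± 1.46 (SD, n = 2 each), a difference of 2.45. Hbb-bt had 251 and 1779 counts in WT 1 and WT 2, and 4934 and 6924 in KO A and KO B. Its KO and WT levels were 12.64 ± 0.32 and 10.27 ± 1.24 on the log2 scale (SD, n = 2 each). The spread between the WT libraries was again several times that between the KO libraries.

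The alpha globin genes repeated this pattern. Hba-a2 had 563 counts in WT 1, 4083 in WT 2, 9036 in KO A and 14290 in KO B, or 13.54 ± 0.45 for KO and 11.08 ± 1.53 for WT on the log2 scale (SD, n = 2 each). Hba-a1 had 258, 1713, 3852 and 5867 counts in the same libraries, and log2 levels of 12.37 ± 0.39 for KO and 10.26 ± 1.199 for WT (SD, n = 2 each). WT 2 held 6.65 to 7.26 times the counts of WT 1 in each of the 4 globin genes.

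**Figure D1:**
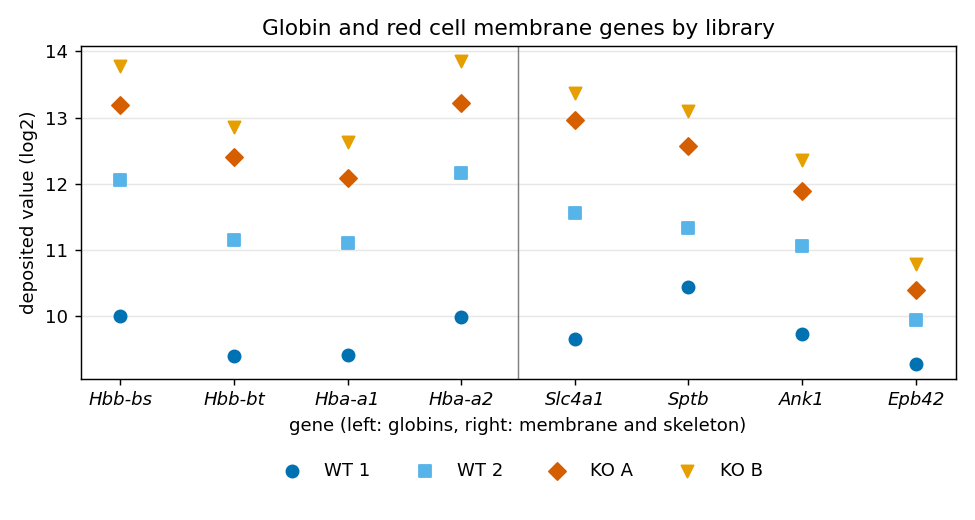
Deposited log2 values (vertical axis) of the 4 globin genes and the 4 membrane genes (horizontal axis), 1 point per library. WT 1 is the lowest and KO B the highest point for every gene, and the gap between the WT points runs from 0.65 log2 units for Epb42 to 2.17 for Hba-a2.

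Slc4a1, band 3, had 371 counts in WT 1 and 2506 in WT 2, and 7482 in KO A and 10131 in KO B. Its KO to WT difference, 2.56 log2 units, was the largest of the 8, from a WT level of 10.61 ± 1.34 to a KO level of 13.17 ± 0.29 (SD, n = 2 each). It followed the globins closely: WT 2 was 6.75-fold and the KO mean 23.7-fold above WT 1, and the globins had 18.9- to 23.6-fold for the second ratio.

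Sptb, beta spectrin, had 915 counts in WT 1, 2097 in WT 2, 5562 in KO A and 8228 in KO B. Its WT libraries lay closer together, at 10.89 ± 0.64 on the log2 scale against 12.83 ± 0.37 in KO (SD, n = 2 each), a difference of 1.94. Ank1, ankyrin 1, had 408, 1655, 3287 and 4770 counts in WT 1, WT 2, KO A and KO B, and log2 levels of 12.13 ± 0.34 for KO and 10.40 ± 0.94 for WT (SD, n = 2 each). Epb42, protein 4.2, was the least abundant, with 210, 528, 876 and 1283 counts in that order and 10.59 ± 0.28 in KO against 9.62 ± 0.46 in WT (SD, n = 2 each). Its difference of 0.98 log2 units was the smallest of the 8, and in mean counts KO was 2.92-fold above WT for Epb42 and 6.12-fold for Slc4a1.

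The reference library decided how large the gap looked. Against WT 2 the KO mean was 2.04-fold (Epb42) to 3.51-fold (Slc4a1) higher, a narrow range over the 8 genes. Against WT 1 it was 5.13-fold for Epb42, 7.53-fold for Sptb and 9.87-fold for Ank1, but 18.9- to 23.7-fold for Slc4a1 and the globins. KO B was 1.35- to 1.58-fold above KO A in the 8 genes, and KO B exceeded KO A in 49.6% of all tested genes. WT 2 was at least 2-fold above WT 1 in all 8 genes, a gap found in 1.19% of tested genes. The gap was known when the genes were chosen, so nothing is read from this comparison.

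**Figure D2:**
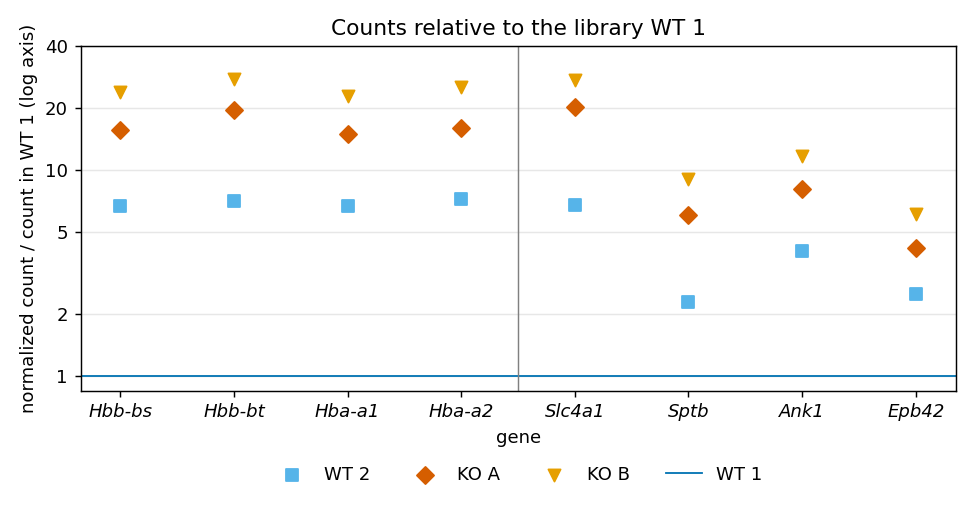
Normalized counts of each gene in WT 2, KO A and KO B divided by the count in WT 1 (log axis, the line at 1 is WT 1 itself). The globins and Slc4a1 sit together, with WT 2 between 6.65 and 7.26, while Sptb, Ank1 and Epb42 sit lower, with WT 2 between 2.29 and 4.05.

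Of the 8 genes, 3 (Hbb-bt, Slc4a1 and Sptb) passed an adjusted p of 0.05 as higher in KO in limma, fitted over all genes, and 0 as lower. The background was 4.69% of tested genes higher and 2.23% lower, and nothing is read from the members' count because this contrast was in view when they were chosen. Both KO libraries lay above both WT libraries in 8 of 8, against 28.1% of tested genes, and for the same reason nothing is read from that. Their median difference was 2.23 log2 units, against a median near 0 (-0.002) over all tested genes. The count rested on single libraries: it was 0 without KO A (8 at an unadjusted p under 0.05, as were 2508 of all 11864 genes), 0 without KO B (7 at that level, as were 2448 of all), 7 without WT 1 and 8 without WT 2, and the median was 2.48, 1.98, 1.40 and 3.10 in turn. Over all genes, too, all or nearly all calls were lost without either KO library. With quantile normalization or on log2 of the count plus 1 the members' count was 1, and with the stricter filter on low values it was 5.

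Levels can be set between genes once counts are divided by transcript length, here that of the longest protein-coding GENCODE M21 transcript. In KO A, Hba-a2 had 16311 counts per kb, Hbb-bs 14078, Hbb-bt 7019, Hba-a1 5510, Slc4a1 1646, Sptb 535, Ank1 400 and Epb42 213. KO B kept this order. In WT 2 Sptb and Ank1 were level, at 202 and 201 counts per kb, and in WT 1 Sptb (88.1) stood above Slc4a1 (81.7). Epb42 (51.1) and Ank1 (49.7) were also close in WT 1. Hba-a1 and Hbb-bt changed places between libraries, with 369 against 357 counts per kb in WT 1 and 2451 against 2530 in WT 2. For scale, Cd74, the invariant chain that dendritic cells make in bulk, had 127292 to 168613 counts per kb.

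Proportions among the globins were steadier than their levels. The counts of the alpha genes together were 1.003 times those of the beta genes in WT 1, 1.04 times in WT 2, 0.936 times in KO A and 0.988 times in KO B. Hba-a2 had 2.18 to 2.44 times the counts of Hba-a1, and Hbb-bt had 0.443 to 0.558 times those of Hbb-bs, both subject to the shared sequence of the copies. Hbb-bt to Hbb-bs was 0.558 and 0.514 in KO A and KO B and 0.443 and 0.472 in WT 1 and WT 2. The groups did not overlap in this ratio or in alpha to beta, but did in Hba-a2 to Hba-a1. KO was the higher group in the first of these and the lower in alpha to beta. Such a separation is common with 2 libraries per group. Of 11864 tested genes, both KO libraries lay above both WT libraries in 3330 (28.1%) and below both in a further 3343. No gap between ratios was tested.

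Relative to the summed globins, the membrane genes fell into different patterns. The ratio of Slc4a1 varied least of the membrane genes, by 1.27-fold. It was 0.227 in WT 1, 0.221 in WT 2, 0.281 in KO A and 0.2498 in KO B, with both KO libraries above both WT libraries. Sptb had 0.185 counts per globin count in WT 2, 0.209 in KO A and 0.203 in KO B, but 0.559 in WT 1. Ank1 was at 0.249 in WT 1 and 0.118 to 0.146 elsewhere, and Epb42 at 0.129 in WT 1 and 0.0316 to 0.0466 elsewhere. WT 1, the library with the fewest globin counts, therefore held more RNA of Sptb, Ank1 and Epb42 per globin count than any other library.

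Red cell genes outside the 8 showed each of these behaviours. Klf1 and Gata1, 2 of the 11 erythroid transcription factor genes listed, varied by 1.44- and 1.36-fold over the 4 libraries in their counts per globin count. Not all of that list kept to the globins: Nfe2 had 1305 counts in WT 1 and 1013 in WT 2. Alas2, the first enzyme of haem synthesis in red cells, was at 0.233 in WT 1 and 0.0586 to 0.0835 elsewhere, as Epb42 was.

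**Figure D3:**
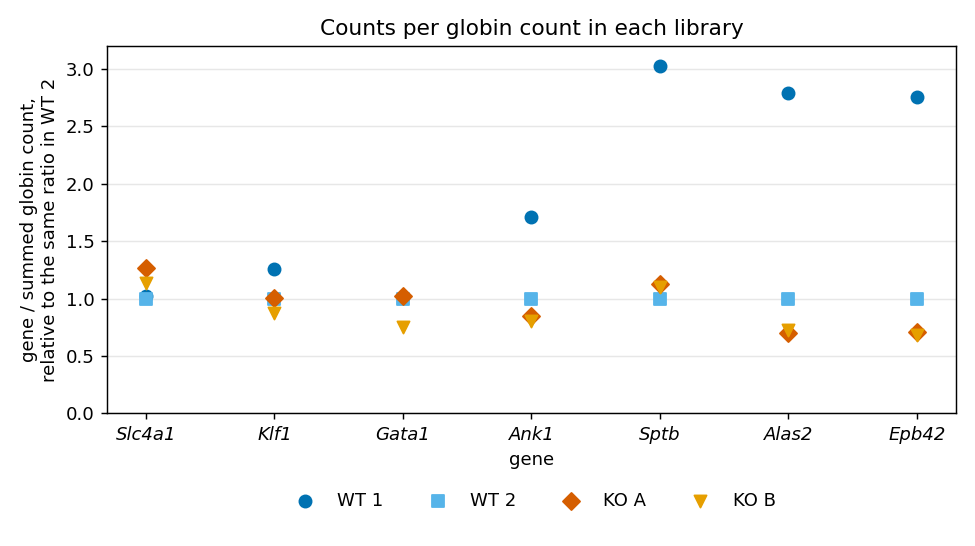
Count of each gene divided by the summed globin count of the same library, relative to that ratio in WT 2 (vertical axis, set to 1 for WT 2). Slc4a1, Klf1 and Gata1 stay between 0.748 and 1.27, whereas WT 1 stands at 1.71 for Ank1, 3.02 for Sptb, 2.79 for Alas2 and 2.76 for Epb42.

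The rest of the red cell membrane list rose in part. Of its 23 genes 21 were tested, 8 rose in KO, 0 fell and 13 did not pass, with a median of 0.79 log2 units (limma, adjusted over all genes). The share of all tested genes was 4.69% higher and 2.23% lower. This list and those that follow were also chosen with earlier results of these data known, so nothing is read from their counts beside that share. Dmtn (dematin) and Add2 (beta adducin), which bind the actin of the skeleton, rose by 1.61 and 1.32 (adjusted p = 0.0388 and 0.0482). Dmtn had 124 and 506 counts in WT 1 and WT 2 and 1239 and 2157 in KO A and KO B, the library order of the globins. Rhag, of the Rhesus complex, rose by 0.79 (adjusted p = 0.0392).

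Mpp1, Slc2a1 and Slc43a1 were also among the 8. Mpp1, a palmitoylated membrane scaffold, rose by 0.70 (adjusted p = 0.0147) with nearly equal WT libraries, at 1449 and 1445 counts. Slc2a1, a glucose transporter, rose by 0.54 (adjusted p = 0.0422), and the amino acid transporter Slc43a1 by 1.001 (adjusted p = 0.0496). The WT mean of Slc43a1, 9.01 log2 units, lay below the filter on low values, so it entered the fit through its KO values. Members that did not pass included Aqp1, the water channel (1.58, adjusted p = 0.0555), Rhd (1.18, adjusted p = 0.0523), Kel (1.101, adjusted p = 0.0541) and Epb41, protein 4.1 (0.51, adjusted p = 0.123). Cd47, found on most cells, differed by 0.05 (adjusted p = 0.793). Without KO A or without KO B the calls of the list were lost, as were all or nearly all calls over all genes. Without WT 1 or without WT 2 more of the list passed than in the main fit, though not more of all genes. With the stricter filter 4 passed, on log2 of the count plus 1 3 and with quantile normalization 2.

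RNA of the nuclear regulators of red cell development was present too. Of 11 erythroid transcription factor genes 5 rose, 0 fell and 6 did not pass, with a median of 0.57, against 4.69% of all tested genes higher. Gata1 had 22.5 counts in WT 1, 153 in WT 2, 367 in KO A and 410 in KO B and rose by 0.91 (SE 0.200, adjusted p = 0.0487). Klf1, which drives beta globin transcription, had 38.7, 213, 504 and 664 counts and rose by 1.08 (SE 0.223, adjusted p = 0.0423). Both thus had the library order of the globins. Their WT means, 8.79 and 8.94 log2 units, lay below the filter on low values. They entered the fit through their KO values, so nothing is read from their passing. Zfpm1, the GATA1 partner FOG1, rose by 1.54 (adjusted p = 0.0147), Tal1 by 1.12 (adjusted p = 0.0470) and Nfe2 by 0.57 (adjusted p = 0.0371). Nfe2 had fewer counts in WT 2 (1013) than in WT 1 (1305), unlike the globins. Epor, the erythropoietin receptor, was below the filter, at 25.7 and 94.2 counts in WT 1 and WT 2 and 162 and 272 in KO A and KO B. Without KO A or without KO B the calls of this list were lost too, with all or nearly all calls over all genes. With quantile normalization 1 of the 11 passed, and with the stricter filter or on log2 of the count plus 1 2.

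Haem synthesis and late red cell genes moved less than the globins. Among 12 tested haem and iron genes (median 0.57) none passed as lower, 8 missed the threshold and 4 rose: Fech, which inserts iron into haem, by 0.99 (adjusted p = 0.0198), Cpox by 1.14 (adjusted p = 0.0499), Slc25a37, the mitochondrial iron importer, by 0.84 (adjusted p = 0.0350) and Alad by 0.68 (adjusted p = 0.0374). Alas2 differed by 1.19 (adjusted p = 0.0548), and the transferrin receptor Tfrc, which dividing cells of many types use, by -0.05 (adjusted p = 0.902). Of 12 late red cell genes 4 rose, 0 fell and 8 did not pass (median 0.55). Beside both lists, 4.69% of all tested genes passed as higher. The carbonic anhydrase Car1 rose by 1.16 (adjusted p = 0.0319), Tent5c by 0.84 (adjusted p = 0.0199) and Isg20 by 0.55 (adjusted p = 0.0487). Without KO A or without KO B the calls of both lists were lost, with all or nearly all calls over all genes. Without WT 2 more genes of each list passed. With quantile normalization 2 passed in each, and on log2 of the count plus 1 1 of the late genes.

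Paralogs that other cell types use in place of the red cell proteins did not rise as these did. In limma 0 of 13 tested passed in either direction, 5 at an unadjusted p under 0.05, with a median of -0.002, and 1 passed without the filter, 1 without WT 1 and 2 with the stricter filter. Sptbn1, the beta spectrin of nucleated cells, had 10019 counts in WT 1, 8788 in WT 2, 11156 in KO A and 11776 in KO B, a difference of 0.28 (SE 0.0926, adjusted p = 0.132), against 1.94 for Sptb. Sptan1, the matching alpha spectrin, differed by 0.27 (adjusted p = 0.0980). Slc4a2, the widely expressed anion exchanger, differed by 0.02 (adjusted p = 0.927), with 1335 to 1714 counts over the 4 libraries. Ank2 differed by 0.09 (adjusted p = 0.612), and Slc4a8, a bicarbonate transporter, by -0.81 (adjusted p = 0.0517). Over all tested genes 4.69% passed as higher and 2.23% as lower, so 0 of 13 lies near that share. Whether a red cell gene and its paralog differ in their change was not tested.

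**Figure D4:**
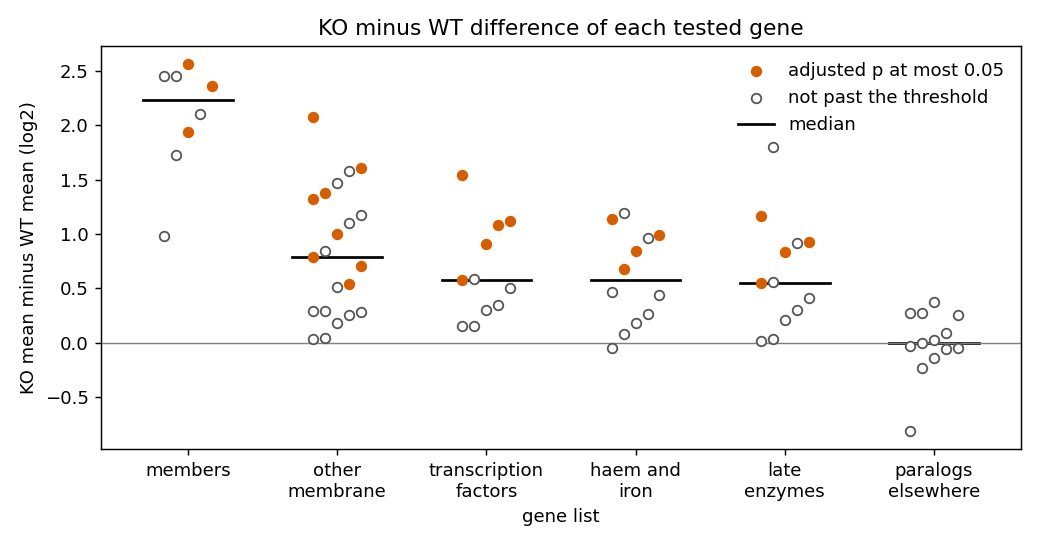
KO mean minus WT mean (log2, vertical axis) of each tested gene in 6 lists, with filled points for an adjusted p of at most 0.05 and a bar at each list's median. The medians are 2.23 for the members, 0.79, 0.57, 0.57 and 0.55 for the other red cell lists and -0.002 for the paralogs.

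Genes outside the 8 with the nearest pattern over the 4 libraries were ranked by Euclidean distance between gene-centred log2(count + 1) profiles and the members' mean profile. That profile was -2.47 in WT 1, -0.17 in WT 2, 1.04 in KO A and 1.60 in KO B. The nearest 10 of 11186 ranked genes included Klf1 (distance 0.144), Hemgn (0.152), Trim10 (0.160), Rhd (0.177), Aqp1 (0.178), Ypel4 (0.200), Plk3 (0.234), Dmtn (0.270) and Add2 (0.281). The members themselves lay between 0.358 (Hba-a1) and 1.199 (Epb42) from their mean. On the deposited log2 values 2 of the 10 were again among the nearest 10, so the ranking depends on the scale, and 4 libraries allow many genes to share a pattern.

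Markers of other cells differed between the same libraries. Over all tested genes 4.69% passed as higher in KO and 2.23% as lower. Dendritic cell genes were abundant in all 4 libraries, and of 15 tested 10 fell in KO, 0 rose and 5 did not pass. Their summed share was 2.13% and 2.19% of counts in WT 1 and WT 2 and 1.58% and 1.48% in KO A and KO B. That sum leans on a few abundant genes: in KO A, Cd74 held 193842 and H2-Ab1 82341 of its 489573 counts. Red pulp macrophage genes rose in 5 of 13, with 0 lower, at 0.0622% and 0.0542% in WT 1 and WT 2 and 0.0911% and 0.120% in KO A and KO B. The 5 were C1qa, C1qb, C1qc, Apoe and Hmox1, which breaks down haem, with an increase of 1.07 (adjusted p = 0.0147). The 8 that did not pass included Spic (0.20), Adgre1 (0.335), Cd163 (0.41), Vcam1 (0.79) and Slc40a1 (0.898). NK cell genes rose in 6 of 7, at 0.0224% and 0.0191% in WT and 0.0377% and 0.0463% in KO. The other NK gene, Klrd1, differed by -0.28 (adjusted p = 0.297 in limma). The summed shares of the macrophage and NK lists were lower in WT 2 than in WT 1, whereas single genes varied, with 5 of 13 and 3 of 7 above WT 1 in WT 2.

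Platelet genes passed in 0 of 4 tested in limma (1 at an unadjusted p under 0.05). The 9 in the table held 0.00784% and 0.00779% of counts in WT 1 and WT 2 and 0.00930% and 0.00913% in KO A and KO B. KO to WT mean counts ran from 0.869 (Gp1ba) to 1.61 (Itga2b) in the tested genes. In Pf4, Ppbp, Gp9, Gp6 and Tubb1, below the filter, they ran from 1.75 (Gp6) to 2.58 (Tubb1). Neutrophil genes passed in 0 of 10 in limma (3 at an unadjusted p under 0.05), and their share was 0.265% in WT 2 and 0.717% to 0.784% in the other libraries. WT 2 was thus low in neutrophil RNA where WT 1 was low in globin RNA. Among B cell genes 1 of 7 rose and among T cell genes 1 of 4 tested, with 0 lower in either, against 4.69% of all tested genes higher. No marker of these lists found in the table was at 0 in any library. KO A stood apart in Y-linked RNA, with 3102 to 3979 counts of Ddx3y in the other libraries. The part of other cells, of sex and of handling in the globin and membrane gene values was not tested.

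**Figure D5:**
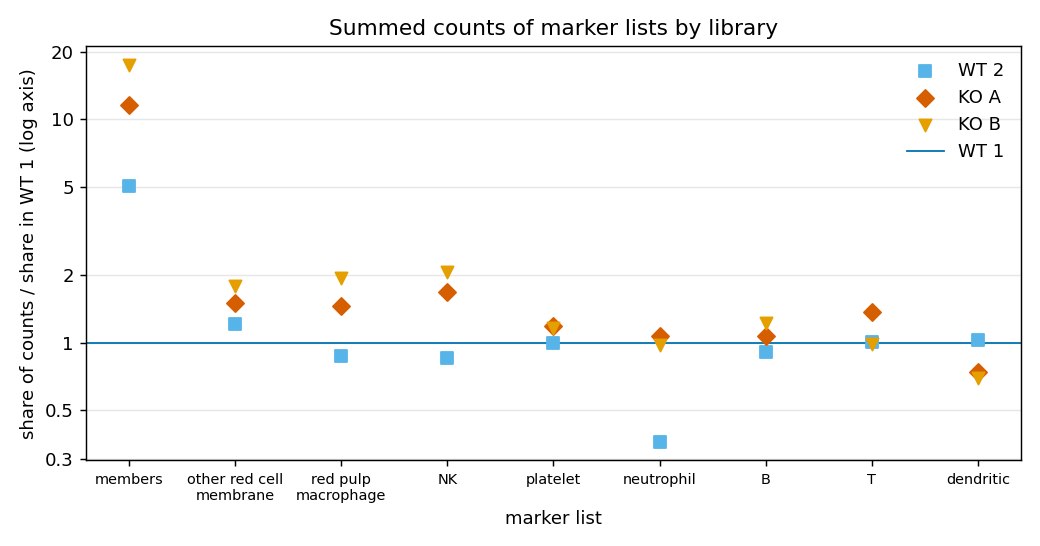
Summed share of counts of each marker list in WT 2, KO A and KO B, divided by its share in WT 1 (log axis, the line at 1 is WT 1). The share held by the globin and membrane genes goes from 0.0122% in WT 1 to 0.0617% in WT 2, 0.142% in KO A and 0.215% in KO B, while the dendritic cell share is lower in both KO libraries.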

How the data were processed

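RNA of sorted splenic dendritic cells was measured in 4 libraries (2 KO, 2 WT), as stranded libraries from low RNA inputs, per the labels' protocols. The deposited table holds log2 values that its name and its shared lowest value mark as variance-stabilized by the authors; Salmon 1.10.1, DESeq2 and build GRCm39 are named, per the submitters' processing notes, with no role or order. No annotation is named there. The shared lowest value v0 of 8.04 gave normalized counts as (2 to the v minus 2 to the v0) squared, over 2 to the v. These summed to between 29002408 and 30952251 per library after scaling, so the depth in reads is unknown, and low log2 values understate a fold.

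Symbols came from GENCODE M21 (17289 of 17300 identifiers). Genes with a mean at or over v0 plus 1 (11864 of them) were compared, KO against WT, with limma 3.58.1 in R 4.3.3 (intensity trend, two-sided, Benjamini-Hochberg over all genes, threshold 0.05). The mean was taken over all 4 libraries, so a gene low in WT could enter through its KO values. The fit was tested on simulated data. A permutation test of 2 against 2 cannot go below p = 0.333 and was not used. The members and lists were chosen with earlier results of these data known. Any gene of the lists could be named, and the pattern rule passed over unnamed models and receptor segments. A misspelt entry kept Hemgn out of the late red cell list, and the motif spellings were settled after the sequences were read. Of the other globin genes listed, Hbq1b was in the table and fell below the filter, and the other listed ones were not analysed here. Some genes of the lists enter the counts and medians but are not reported here by name.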

Additional observations from a re-analysis of the deposited data

How the results depend on the processing

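The main fit gave 822 genes, 557 higher and 265 lower (67.8% higher). No filter gave 858, the filter of 2 log2 units 710, log2 of the count plus 1 681, quantile normalization 648 (366 higher, 282 lower, 56.5% higher) and no intensity trend 780. Leaving out 1 library gave between 0 (without KO A, 2508 at an unadjusted p under 0.05) and 820. Nearly all calls were also lost without KO B. A lone library in a group is assumed to vary like the others.

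For the 8 globin and membrane genes the count was 3, with 5 under the stricter filter, 1 on log2 of the count plus 1, 1 with quantile normalization and 0 to 8 when 1 library was left out. Their median difference was positive in all 9 alternatives, from 1.40 to 3.10 when 1 library was left out. Leaving out a library could not turn its sign, because both KO libraries lay above both WT libraries in all 8 genes.

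In the same order of stricter filter, count scale and quantile normalization, the other membrane list gave 4, 3 and 2 in place of 8 (0 to 14 over left-out libraries) and the transcription factors 2, 2 and 1 in place of 5 (0 to 6). The haem list gave 2 with quantile normalization in place of 4 (0 to 7), and the late genes 1 on the count scale and 2 with quantile normalization in place of 4 (0 to 7). The paralogs gave 1 without the filter and 2 with the stricter one in place of 0 (0 to 1). The causes were not tested. Lowering the lowest value by 0.01 moved the 28 ratios to globins or between globins by at most 0.412%, and the distance on deposited log2 values kept 2 of the 10 nearest genes. No paired analysis was possible because the KO columns carry other numbers than the KO samples.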

Other observations

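Genes of early blood progenitors did not follow the globins. Kit, the stem cell factor receptor, was lower in KO by -0.69 log2 units (SE 0.111, adjusted p = 0.0253 in limma), with 7328 and 7217 counts in WT 1 and WT 2 and 3858 and 4837 in KO A and KO B. Gata2, a transcription factor of progenitors and mast cells, rose by 0.92 (SE 0.151, adjusted p = 0.0263), from 201 and 158 counts in WT 1 and WT 2 to 499 and 812 in KO A and KO B. Myb differed by 0.57 (adjusted p = 0.0988) and Cd34 by -0.07 (adjusted p = 0.757). In none of these 4 genes was WT 2 above WT 1.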
